A study of Mus musculus with 6 samples.

Results

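The genes described here are the 3 NR4A nuclear receptors and 7 genes of the CREB pathway, read in adipocytes grown from the inguinal white fat of mice, which lies under the skin. The 10 members were Nr4a1, Nr4a2, Nr4a3, Creb1, Crem, Crtc2, Crtc3, Sik1, Sik2 and Dusp1, out of 27365 genes tested. They were taken by symbol, and each was read from its brightest transcript cluster among those annotated as gene-specific. The cells were fully differentiated in culture and had received 50 µM kynurenic acid for 12 h (3 arrays) or PBS as the control for the same time (3 arrays). The arrays of a group are titled as technical replicates, and no strain, genotype, age or number of animals or cultures is given. The p-values therefore rest on a spread between arrays that may be technical. The comparison asks which transcripts differed after a single, acute exposure to kynurenic acid, a breakdown product of tryptophan.

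The CREB pathway turns a rise in cyclic AMP into transcription. Protein kinase A phosphorylates CREB1 on DNA and restrains the salt-inducible kinases SIK1 and SIK2, which otherwise keep the CRTC coactivators in the cytoplasm. The freed coactivators join CREB1 at cAMP response elements, and the genes that answer include those of the NR4A receptors, of the kinase SIK1, of the phosphatase DUSP1 and of the repressor ICER, a short product of Crem. The NR4A receptors are immediate early transcription factors without a known classical ligand, and in fat they are best known as transcripts that rise and decay quickly after beta-adrenergic stimulation.

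The promoters of the 3 receptor genes and of Dusp1 are shown because they hold matches to the cAMP response element or its core. Chosen for these matches, they cannot show whether the members hold more of them than other genes. All 4 are RefSeq sequences of build GRCm38.p6, running from 250 bases before to 50 bases after the annotated start, on the strand of the gene. The letters searched were TGACG, here called the core element, read on both strands (CGTCA on the other), and TGACGTCA, the full palindromic element, which holds overlapping core elements. Capitals mark every match of the core element, so that the full element appears as 8 capitals in a row.
Nr4a1, plus strand, chr15:101266596-101266895: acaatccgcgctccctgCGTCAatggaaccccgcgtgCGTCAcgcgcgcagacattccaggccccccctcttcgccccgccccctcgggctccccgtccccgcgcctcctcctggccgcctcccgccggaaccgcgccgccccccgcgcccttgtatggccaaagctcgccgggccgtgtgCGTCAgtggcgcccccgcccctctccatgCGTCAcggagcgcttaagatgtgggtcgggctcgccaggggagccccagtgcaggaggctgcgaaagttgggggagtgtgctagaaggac
Nr4a2, minus strand, chr2:57123954-57124253: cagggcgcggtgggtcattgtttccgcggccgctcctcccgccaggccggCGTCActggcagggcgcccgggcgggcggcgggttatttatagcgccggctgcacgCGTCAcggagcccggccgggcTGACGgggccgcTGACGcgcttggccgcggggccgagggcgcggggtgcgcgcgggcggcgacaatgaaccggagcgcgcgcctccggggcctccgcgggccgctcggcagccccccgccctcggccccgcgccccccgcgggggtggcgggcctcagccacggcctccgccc
Nr4a3, plus strand, chr4:48045055-48045354: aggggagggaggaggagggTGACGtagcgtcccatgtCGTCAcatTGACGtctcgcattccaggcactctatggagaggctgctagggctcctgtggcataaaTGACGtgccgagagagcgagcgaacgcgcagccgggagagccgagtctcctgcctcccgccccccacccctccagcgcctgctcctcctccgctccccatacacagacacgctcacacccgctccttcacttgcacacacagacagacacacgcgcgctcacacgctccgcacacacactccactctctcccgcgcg
Dusp1, minus strand, chr17:26508423-26508722: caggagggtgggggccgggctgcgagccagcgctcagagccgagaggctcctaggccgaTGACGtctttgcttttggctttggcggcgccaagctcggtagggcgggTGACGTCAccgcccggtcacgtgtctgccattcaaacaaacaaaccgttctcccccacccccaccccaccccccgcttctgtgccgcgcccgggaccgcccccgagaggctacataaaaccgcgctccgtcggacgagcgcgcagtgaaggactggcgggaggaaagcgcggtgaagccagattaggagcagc

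Each of the 3 NR4A promoters held 4 core elements and no full element. In Nr4a1 they began 233, 213, 69 and 40 bases before the start, in Nr4a2 200, 144, 123 and 111 bases before it, and in Nr4a3 231, 213, 205 and 147 bases before it. A count of at least 4 was found in 0.231% of 32851 RefSeq promoters of the same length. The Dusp1 promoter held the full element, beginning 143 bases before the start, and a further core element 191 bases before it; 1.79% of all promoters held a full element. Promoters of 7 of the 10 members were matched. Sik2 also held core elements (2), whereas Creb1 and Crtc3 held none in this window, against 20.8% of all promoters with at least 1. The NR4A response element AAAGGTCA, searched on both strands, was found in 0 of the 7 promoters and in 1.51% of all. Such matches describe these letters only.

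None of the 10 transcripts passed the limma test of kynurenic acid against PBS over all genes, with adjusted p-values from 0.504 for Crem to 0.975 for Crtc3. The test called 0 of all 27365 genes (0.00%), with a smallest adjusted p of 0.435 and an ordinary test per gene without limma's shared variance also called 0 after adjustment. At an unadjusted limma p below 0.05 stood 2653 genes (9.69%), of which 1 was a member, Crem. Of the members 5 had a log2 change above 0 (4 once arrays were centred on their medians) and 5 below it, with a median of -0.0083, where all genes had 51.8% above 0, 47.1% below it and a median of 0.0067. The median size of the change, without its sign, was 0.10 log2 for the members and 0.087 for all genes. For each of the 10, the range within 1 of the groups was larger than the difference between the group means. All 10 intervals of the fold change, at 95%, lay between 0.729 and 1.23. They rest on a spread between arrays that may be technical. For members read near background they do not bound the change of the transcript.

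Arrays were alike as wholes, with Pearson correlations of 0.992 to 0.996 across genes, which are not independent replicates. Of 12 adipocyte markers, 11 were measured, all above background, and their mean on single arrays was 9.49 to 9.52 log2 with kynurenic acid and 9.50 to 9.53 with PBS. Of the 10 macrophage markers all were above background, with means of 6.97 to 7.23 log2 with kynurenic acid and 7.0 to 7.31 with PBS. Changes of these 10 were above 0 for 2 and below it for 8, with a median of -0.14 log2. Of the preadipocyte and fibroblast markers 7 of 9 measured were above background on all arrays, with means of 7.14 to 7.30 log2 with kynurenic acid against 7.26 to 7.32 with PBS. Of the endothelial markers 3 of 8 were, with means of 3.98 to 4.0 log2 with kynurenic acid against 3.83 to 3.87 with PBS. Changes of these 8 were above 0 for 6 and below it for 2. The largest was 0.51 for Cdh5, named after its values were seen (limma adjusted p = 0.472), and it weighs heavily in these means. The second array of each group stood apart in 12 interferon-stimulated genes, whose mean was 5.71, 6.36 and 5.54 log2 with kynurenic acid, against 5.82, 6.62 and 5.78 with PBS. Changes of these 12 were above 0 for 1 and below it for 11, with a median of -0.2 log2. The counts above and below 0 were 5 and 6 for the adipocyte markers, and 4 and 5 for the preadipocyte and fibroblast markers. In such bulk cultures fewer cells of a type and less RNA per cell cannot be told apart. Background here is the mean of 23 antigenomic probe sets, which match no mouse sequence, and it was itself 3.76 to 3.91 log2 on the kynurenic acid arrays and 3.58 to 3.76 on the PBS arrays. The probe sets spread widely around that mean. Their 95th percentile was 6.84 to 7.21 log2 on the kynurenic acid arrays and 6.49 to 6.83 on the PBS arrays. Of the 10 members, 2 were above that percentile on all 6 arrays, Sik2 and Dusp1. Nr4a1, Nr4a2, Nr4a3, Crem, Crtc3 and Sik1 were above it on 0 arrays, so their values bound detection less well. The part of these cells, of the interferon-stimulated genes and of the background in the values below was not tested.

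**Figure D1:**
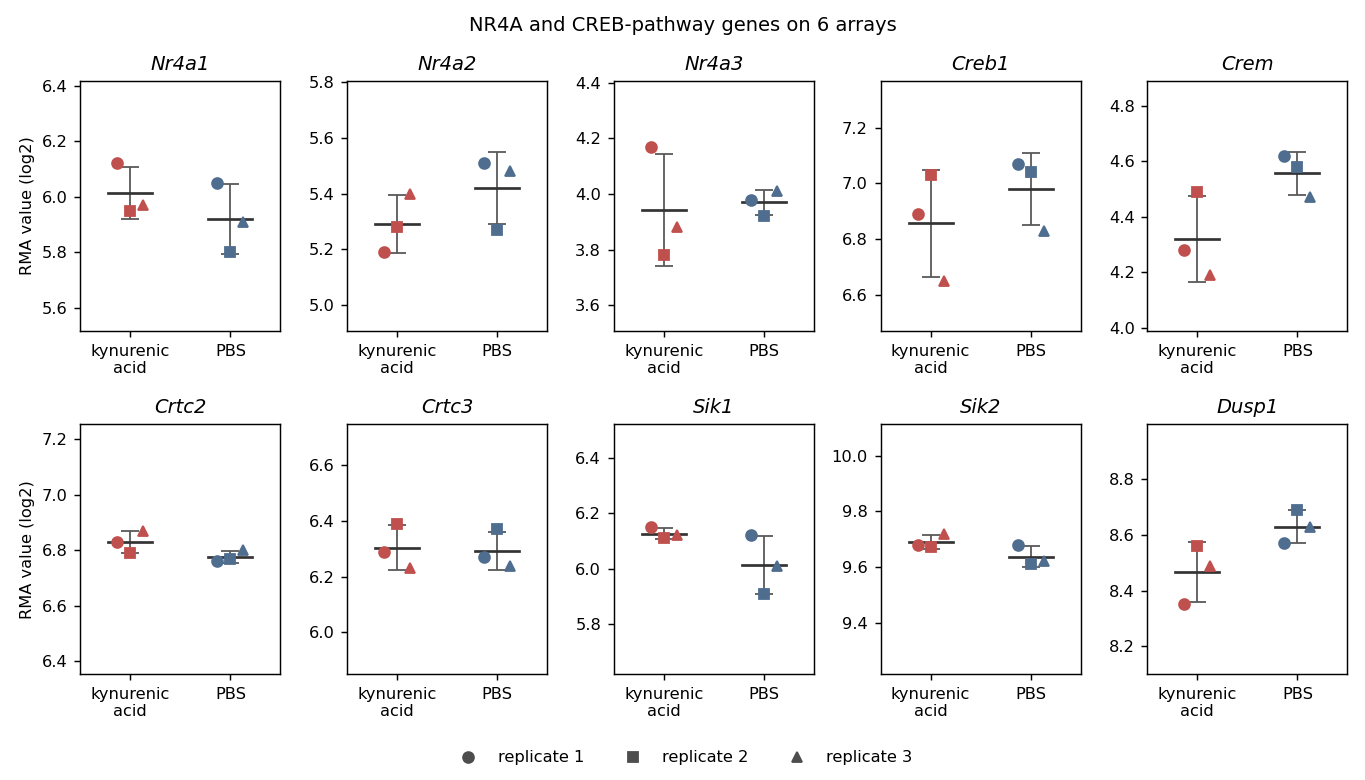
RMA values (log2) of the 10 members on each array, kynurenic acid on the left and PBS on the right of each panel. Points are single arrays with a shape for each replicate number, long bars are means and whiskers are 1 SD (n = 3 each), and every panel spans the same height on its log2 axis. The groups overlap in 9 panels, and only in Dusp1 do all kynurenic acid arrays, at most 8.56, lie below all PBS arrays, at least 8.57.

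Among the receptors, Nr4a1, which encodes Nur77, was read by 26 probes on chromosome 15 at 101266846 to 101274795 (mm10). Its values were 6.12, 5.95 and 5.97 log2 with kynurenic acid, against 6.05, 5.80 and 5.91 with PBS. The highest array was a kynurenic acid array and the lowest a PBS array, but the groups overlapped. The log2 change was 0.093 (SE 0.093), with a 95% interval from -0.12 to 0.30 (limma, adjusted p = 0.758). It was 0.033 when PBS replicate 2, the lowest array, was left out.

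Nr4a2, which encodes Nurr1, a receptor also needed for dopamine neurons, gave 5.19, 5.28 and 5.40 log2 with kynurenic acid, against 5.51, 5.27 and 5.48 with PBS. Its 20 probes lie on chromosome 2 at 57106830 to 57124003. The groups overlapped through PBS replicate 2, which lay below 2 of the kynurenic acid arrays. The log2 change was -0.13 (SE 0.096, 95% interval -0.35 to 0.086, limma adjusted p = 0.668).

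Nr4a3, which encodes Nor1, was read close to background. It gave 4.17, 3.78 and 3.88 log2 with kynurenic acid, against 3.98, 3.92 and 4.01 with PBS, from 28 probes on chromosome 4 at 48045153 to 48086447. It was above the background mean on 5 of 6 arrays and below it on kynurenic acid replicate 3. Both the highest and the lowest value came from kynurenic acid arrays, which had an SD of 0.20 against 0.046 for PBS (n = 3 each). The log2 change was -0.027 (95% interval -0.27 to 0.21, limma adjusted p = 0.951). Values this near to background bound the level of the transcript poorly, and a change of it would be read as smaller than it was. The 3 receptors thus gave 1 value above 0 and 2 below it, none past the test.

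Of the DNA-bound factors, Creb1, the factor that gives the pathway its name, was read by 23 probes on chromosome 1 at 64532804 to 64604548. It gave 6.89, 7.03 and 6.65 log2 with kynurenic acid, against 7.07, 7.04 and 6.83 with PBS. Kynurenic acid replicate 3 was the lowest of all 6 arrays, while the other kynurenic acid arrays lay within the PBS range. The log2 change was -0.12 (SE 0.11, 95% interval -0.38 to 0.13, limma adjusted p = 0.739), and -0.02 without that replicate. Its activity is set by phosphorylation, which an array does not read.

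Crem had the largest change in size among the members and, in limma without an intensity trend, the only interval without 0. It gave 4.28, 4.49 and 4.19 log2 with kynurenic acid, against 4.62, 4.58 and 4.47 with PBS. Kynurenic acid replicate 2 lay just above PBS replicate 3, so the groups overlapped by 1 pair of arrays. The means were 4.32 ± 0.15 and 4.56 ± 0.078 log2 (SD, n = 3 each), a change of -0.24 (SE 0.097) and a fold of 0.849, with a 95% interval of the log2 change from -0.46 to -0.018. The unadjusted limma p was 0.0368 and the adjusted p was 0.504, so Crem did not pass. Its unadjusted p was 0.0524 in limma with an intensity trend in the variance and 0.0762 by a test of each gene alone, so which member stands below 0.05 before adjustment depended on the variance model. The change was -0.32 when kynurenic acid replicate 2 was left out and -0.17 when replicate 3 was. Crem encodes activators as well as the repressor ICER, which starts at a promoter inside the gene. The 45 probes span chromosome 18 at 3266048 to 3337748 and were summarised to a single value, so ICER was not read apart from the longer forms.

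**Figure D2:**
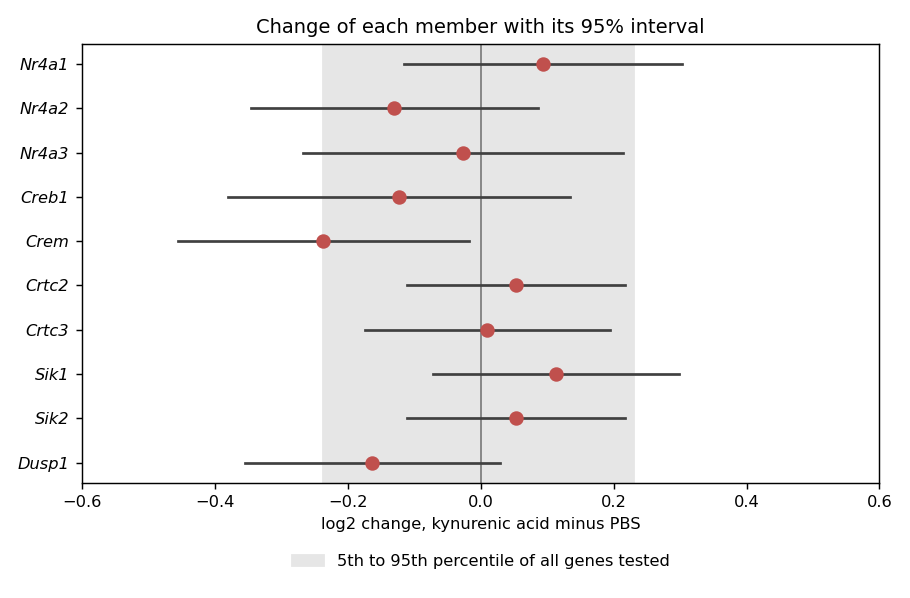
Log2 change of each member, kynurenic acid minus PBS, as points with their 95% intervals from limma (lines); the grey band runs from the 5th to the 95th percentile of all 27365 genes, -0.24 to 0.23. The intervals of 9 members include 0, and that of Crem ends at -0.018.

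The CRTC coactivators, which carry the cAMP signal to CREB1, had changes near 0. Crtc2 gave 6.83, 6.79 and 6.87 log2 with kynurenic acid, against 6.76, 6.77 and 6.80 with PBS. The groups overlapped through a single pair of arrays 0.01 log2 apart, and the log2 change was 0.053 (SE 0.073, 95% interval -0.11 to 0.22, limma adjusted p = 0.832). Crtc3, a form studied for its part in the energy balance of fat in mice, gave 6.29, 6.39 and 6.23 log2 with kynurenic acid, against 6.27, 6.37 and 6.24 with PBS. Its groups covered almost the same range, and the change was 0.01 (95% interval -0.17 to 0.19, limma adjusted p = 0.975). The Crtc2 probes (31) lie on chromosome 3 at 90254163 to 90264125 and those of Crtc3 (29) on chromosome 7 at 80586627 to 80688877.

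The salt-inducible kinases both had values just above 0. Sik1, itself a CREB target that feeds back on the pathway, gave 6.15, 6.11 and 6.12 log2 with kynurenic acid, against 6.12, 5.91 and 6.01 with PBS. The kynurenic acid arrays lay close together, with an SD of 0.021 against 0.10 for PBS (n = 3 each), and PBS replicate 1 fell among them. The log2 change was 0.11 (SE 0.082, 95% interval -0.071 to 0.30, limma adjusted p = 0.662). It was 0.062 without PBS replicate 2. Sik2, the form known for its high expression in adipocytes, gave 9.68, 9.67 and 9.72 log2 with kynurenic acid, against 9.68, 9.61 and 9.62 with PBS. It was well above background on all arrays, with a change of 0.053 (SE 0.073, 95% interval -0.11 to 0.22, limma adjusted p = 0.832). Sik1 was read by 21 probes on chromosome 17 at 31844248 to 31855792 and Sik2 by 25 probes on chromosome 9 at 50892801 to 51009073.

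Dusp1, which encodes a phosphatase that switches off MAP kinases, was the only member whose groups did not overlap. It gave 8.35, 8.56 and 8.49 log2 with kynurenic acid, against 8.57, 8.69 and 8.63 with PBS. Every kynurenic acid array was lower than every PBS array, with the nearest pair 0.01 log2 apart. Of all genes 14.7% had groups without overlap, 7.58% with kynurenic acid lower, so that 1 of 10 members is near the background. The means were 8.47 ± 0.11 and 8.63 ± 0.06 log2 (SD, n = 3 each). The log2 change of -0.16 (SE 0.085, 95% interval -0.36 to 0.028) did not pass, with an unadjusted limma p of 0.0861 and an adjusted p of 0.557. With an intensity trend in the variance the unadjusted limma p was 0.0349 and the adjusted p 0.444. The change was -0.105 without kynurenic acid replicate 1, the lowest array. Its 21 probes lie on the minus strand of chromosome 17 at 26505590 to 26508519. A second cluster under the same symbol is annotated to the plus strand at 26505592 to 26506077 with probes that also match other transcripts, and its change was -0.017.

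**Figure D3:**
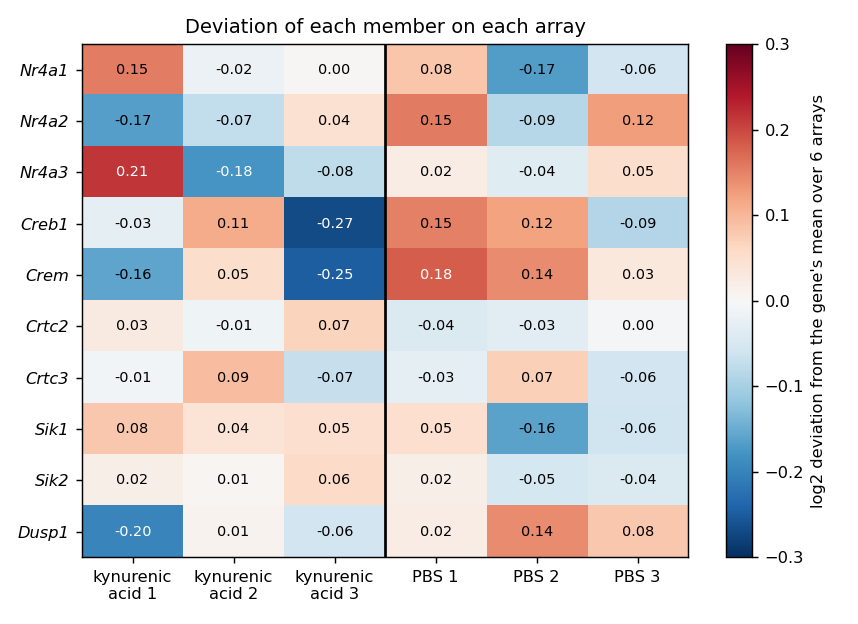
Deviation (log2) of each member on each array from its own mean over the 6 arrays, with kynurenic acid arrays on the left of the black line and PBS arrays on the right. Blue is lower and red is higher; Creb1 and Crem are lowest on kynurenic acid array 3, at -0.27 and -0.25, and Nr4a1 and Sik1 are lowest on PBS array 2, at -0.17 and -0.16.

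Set against their own means over the 6 arrays, the members did not move as a block. The median deviation of the 10 genes on single arrays was 0.0042, 0.0092 and -0.028 log2 with kynurenic acid, against 0.037, -0.035 and -0.023 with PBS. PBS replicate 1 stood out by number, with 8 members above their own mean, while the other arrays had 4 to 6. Some genes shared an array of extreme values. Nr4a1 and Sik1 were lowest on PBS replicate 2, where Dusp1 was highest, and Creb1 and Crem were lowest on kynurenic acid replicate 3. These are descriptions of 6 arrays.

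The genes whose values were most like those of Nr4a1 over the 6 arrays were Cul7, Fam47e, C4b, Nfe2l3 and Wisp2, by root mean square differences of 0.023 to 0.030 log2 after each gene's mean was removed. Nr4a1 itself varied by 0.10 log2 on that measure. For Dusp1 they were Polr1c, Atl2, Cd164, Fam192a and Rsl1d1, at 0.017 to 0.022, where Dusp1 varied by 0.11. No member was among the 5 nearest to either, out of 12058 candidates, the named genes with a gene-specific cluster above background on all arrays. Nr4a3 was not a candidate. With so many candidates, the absence of members does not measure whether the members moved together.

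Around the members, 5 lists of pathway genes were read in the same fit, and no gene of any list passed the limma test over all genes. Among the other CREB and ATF family factors, 11 genes were measured, with 5 changes above 0 and 5 below it (4 and 6 after median centring) and a median of 0. At an unadjusted limma p below 0.05 stood 1 gene on the higher and 1 on the lower side, 2 of 11 where all genes had 9.69%. The groups did not overlap for 1 gene on the higher and 2 on the lower side, where all genes had 14.7% in both directions together. Creb3l1, a membrane-bound factor of the secretory pathway released from the endoplasmic reticulum, gave 7.45, 7.38 and 7.52 log2 with kynurenic acid, against 7.05, 7.12 and 7.24 with PBS. Its groups did not overlap, and its log2 change was 0.31 (SE 0.084, limma adjusted p = 0.472). Atf2, a partner of Jun proteins, gave 7.21, 7.35 and 7.24 log2 with kynurenic acid, against 7.49, 7.46 and 7.41 with PBS, a change of -0.19 without overlap (SE 0.078, limma adjusted p = 0.507). The other gene without overlap on the lower side, named after its values were seen, was Crebrf, with a change of -0.15.

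All 8 coactivators and NR4A partners had a change above 0, or 7 of 8 once arrays were centred on their medians, with a median of 0.093 log2 and 0 genes at an unadjusted p below 0.05. The count was also 7 of 8 without PBS replicate 2 and without PBS replicate 3. The groups did not overlap in 4 of the 8, where 7.14% of all genes had kynurenic acid higher without overlap. Rxrb, a retinoid X receptor, gave 5.43, 5.27 and 5.42 log2 with kynurenic acid, against 5.25, 4.70 and 5.25 with PBS. Its PBS arrays spanned 0.55 log2 through the low value of replicate 2, and its change was 0.31 (SE 0.14, limma adjusted p = 0.528). Crtc1, the coactivator best known from the brain, had a change of 0.16 (SE 0.081, limma adjusted p = 0.553). The other 2 without overlap, named after their values were seen, were the histone acetyltransferase genes Ep300, with a change of 0.16, and Crebbp, with 0.087. No test was made of the list as a whole. It was chosen with earlier results of these data known, so its counts are no independent support for a shared change.

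The list of SIK regulators and substrates held 11 measured genes, 6 above 0 and 4 below it (4 and 7 after median centring), with a median of 0.01 log2 and 0 genes at an unadjusted p below 0.05. In 3 of the 11 all kynurenic acid arrays were above all PBS arrays, where 7.14% of all genes were. Hdac4, a class IIa histone deacetylase that SIKs phosphorylate, gave 6.64, 6.50 and 6.40 log2 with kynurenic acid, against 6.35, 6.30 and 6.35 with PBS, a change of 0.18 without overlap (SE 0.085, limma adjusted p = 0.528). The other 2, named after their values were seen, were the kinase gene Sik3, with a change of 0.12, and the deacetylase gene Hdac5, with 0.13. Strada, a partner of the upstream kinase LKB1, had a change of -0.16 (SE 0.09, limma adjusted p = 0.580). Of the other MAP kinase phosphatases, 9 were measured, 5 above 0 and 4 below it (3 and 5 after median centring), with a median of 0.017 and none at an unadjusted p below 0.05. Their largest changes were 0.12 for Dusp5 and -0.077 for Dusp10, both with overlapping groups. The groups did not overlap for 1 gene of the 9, Dusp16, named after its values were seen, with a change of -0.04. Of all genes 7.58% had kynurenic acid lower without overlap.

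Of the genes known to respond to cAMP or CREB in one tissue or another, 21 were measured. Changes were above 0 for 13 and below it for 8 (10 and 10 after median centring), with a median of 0.037 log2, and none had an unadjusted limma p below 0.05. The largest changes were 0.22 for Sst, the somatostatin gene in which the element was first studied, and -0.21 for Ier2, an immediate early gene, with adjusted p-values of 0.595 and 0.578 by limma. Sst read close to background, at 4.43, 3.98 and 4.37 log2 with kynurenic acid, against 3.91, 4.05 and 4.17 with PBS. Per1, a clock gene induced through CREB and named after its values were seen, gave 7.95, 8.17 and 7.92 log2 with kynurenic acid, against 7.87, 7.80 and 7.86 with PBS, a change of 0.17 without overlap (limma adjusted p = 0.561). The other of the 2 genes of the list without overlap was Junb, an AP-1 factor gene also named after its values were seen, with 0.077. These are 2 of 21, where 7.14% of all genes had kynurenic acid higher without overlap.

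**Figure D4:**
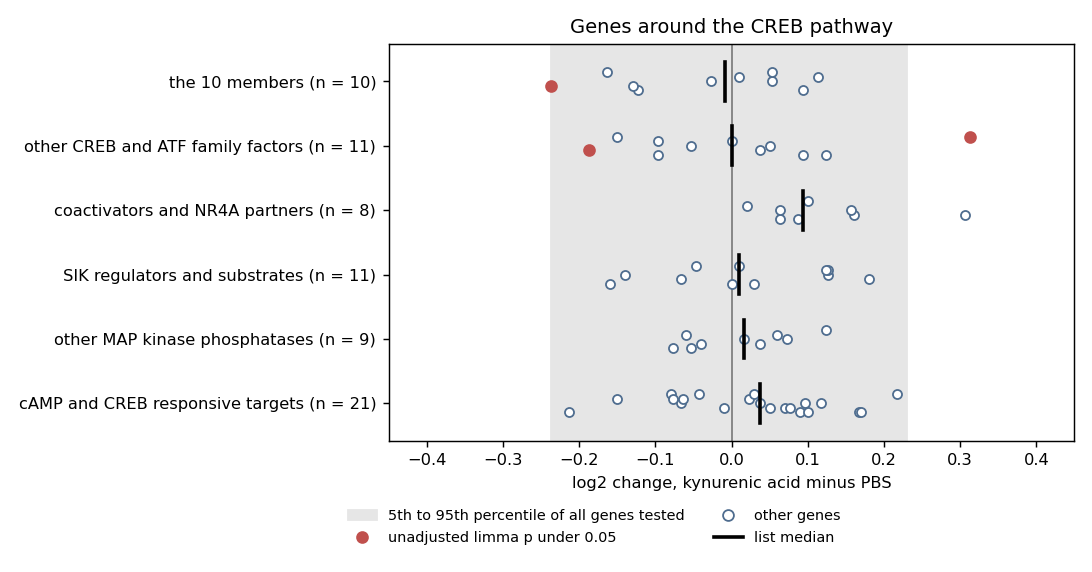
Log2 change, kynurenic acid minus PBS, of every measured gene of the 10 members and of 5 lists of pathway genes; black bars are list medians, filled points have an unadjusted limma p below 0.05, and the grey band runs from the 5th to the 95th percentile of all genes. Filled points are Crem at -0.24, Atf2 at -0.19 and Creb3l1 at 0.31, and all 8 coactivators and partners lie above 0, or 7 of 8 after median centring.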

How the data were processed

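RNA of 6 samples was read on Affymetrix MoGene 2.0 ST arrays. The deposited log2 values came from RMA in Expression Console 1.41, per the submitters' processing notes. RMA applies background subtraction, quantile normalization and median polish, and so removes a shift shared by most transcripts. Both deposited tables held the same values (largest difference 0). Annotation was NetAffx build 34 on mm10, per the file headers.

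Each of 27365 symbols was read from its brightest cluster, averaged over all arrays, among gene-specific clusters (crosshyb type 1) where there were any (25614 symbols). Kynurenic acid minus PBS was tested with limma 3.58.1 (lmFit, eBayes) in R 4.3.3, two-sided, with Benjamini-Hochberg adjustment and a threshold of 0.05. Precision is limited by the 6 arrays, and the 95% intervals reached, at the median, 0.21 log2 to either side. The fit was tested on simulated data with changes far larger than those of the members, so that check does not bear on changes of their size. No filter on dim genes was used.

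Members and lists were chosen with earlier results of these data known. Beside all members, the text names the 2 genes of each other list with the largest change above background, and the 5 nearest patterns to Nr4a1 and Dusp1. Alternatives changed the cluster, normalization, filter, variance model, test, replicate block and arrays.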

Additional observations from a re-analysis of the deposited data

How the results depend on the processing

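In all 14 alternatives, 0 genes were called and no member passed, the lowest adjusted p of a member being 0.270 for Crem without kynurenic acid replicate 2. At an unadjusted p below 0.05 stood 1910 to 3570 genes with single arrays left out. Signs held for 8 members in every alternative. Only median centring, cyclic loess and leaving out single arrays altered the log2 change of a member. The other alternatives gave the main value for each member, so they say nothing about its sign. Crtc3 turned to -0.027 after median centring and ran from -0.033 to 0.048 with single arrays left out, and Nr4a3 ran from -0.14 to 0.055. Median centring subtracts a single offset from each array, so every gene's log2 change moved by the same amount. The median of all genes moved from 0.0067 to -0.03. Medians became -0.045 for the members, -0.027 for SIK regulators, 0 for cAMP targets and 0.057 for coactivators. Those of CREB and ATF factors and of MAP kinase phosphatases became -0.037 and -0.02. Cyclic loess moved the median to 0.062 for SIK regulators and 0.14 for coactivators. The filter at the 40th percentile, with 10 of the 11 CREB and ATF factors left, gave -0.027. With single arrays left out, medians ran from -0.025 to 0.048 for SIK regulators, 0.078 to 0.14 for coactivators, -0.04 to 0.04 for CREB and ATF factors, 0.023 to 0.07 for cAMP targets, -0.028 to 0.072 for MAP kinase phosphatases and -0.032 to 0.019 for the members. The cause of the moves other than those of median centring was not tested. Same-numbered arrays deviated together weakly, with Pearson correlations of 0.037, 0.065 and 0.093 across genes, each the highest for its arrays. Other pairs of arrays from the 2 groups ran from -0.070 to 0.0038. The deviations were taken from each group's mean and sum to 0 within a group. Positive values for same-numbered arrays therefore force negative values among the other pairs. The titles do not say whether same-numbered arrays were handled together, and the main fit left the numbers out. With the replicate number as a block in limma, 0 genes were called and 2893 had an unadjusted p below 0.05. The adjusted limma p was then 0.436 for Crem and 0.520 for Dusp1. Dim genes such as Nr4a3 are limited by signal near background.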

Other observations

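Genes with the full cAMP response element TGACGTCA in the promoter window were, as a group, slightly on the lower side with kynurenic acid. Of 466 such genes 41.2% had a log2 change above 0, with a median of -0.033, against 50.4% and 0.0033 for 17484 genes whose window lacked it. At an unadjusted limma p below 0.05 stood 2.79% on the higher and 6.87% on the lower side, against 4.39% and 5.08%, and none was called after adjustment. Among genes above background on all arrays the gap was smaller, with 35.7% above 0 and a median of -0.047 for 345 genes with the element, against 42.3% and -0.023 for 10303 without it. The difference between the medians was -0.037 in the first comparison, -0.018 after cyclic loess and between -0.04 and -0.024 when an array was dropped. Of 4794 genes with the core TGACG, which include those with the full element, 44.7% were above 0 with a median of -0.017. For 13156 genes without the core these were 52.2% and 0.01. More genes with the core were above background on all arrays, 3580 of 4794 against 7068 of 13156 without it. The core was not compared among genes above background alone, and the part of brightness in its gap was not tested. Median deviations of the genes with the full element on single arrays were -0.025, 0.0033 and -0.032 log2 with kynurenic acid, against 0.023, 0.02 and 0.0058 with PBS, so that kynurenic acid replicate 2 lay below all PBS arrays by little. These are descriptions across genes, which are not independent replicates, and no test of the group was made. Dusp1 was the only member with the element among the 7 whose promoters were matched.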
